A study of Mus musculus with 9 samples.

Results

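The Wnt signalling genes described here are the secreted Wnt ligands, the Frizzled receptors, the Ror co-receptors, the secreted antagonists of the Dkk, Sfrp and Wif families, and the intracellular relay from Axin and beta-catenin to the TCF/LEF transcription factors. They were chosen by symbol: every mouse gene on the array beginning with Wnt, Fzd, Dkk or Sfrp followed by a number, together with Frzb, Wif1, Axin1, Axin2, Ctnnb1, Lef1, Tcf7, Tcf7l1, Tcf7l2, Ror1 and Ror2. No probe matched Lrp5 or Lrp6, the co-receptors that the rule also names. The set held 48 genes on 65 probes, and 30 of them were among the 17742 genes bright enough to test.

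The kidneys came from male mice aged 10 weeks of the anaemic ISAM line, which makes too little erythropoietin. All 9 carried the same genotype, written Epo–/–::3.3K-Epo3'-Tg458 in the labels, in which both copies of the erythropoietin gene are inactivated and an Epo transgene is present, on a mixed strain background. In the clip arm (3 kidneys) a vascular clip had closed the left ureter for 2 days. In the release arm (3 kidneys) the ureter had been clipped for 2 days and the kidney was taken 12 days after the clip was removed. The control arm of 3 kidneys joined 2 sham-treated kidneys and 1 untreated kidney. The labels give no collection day for the controls. All animals, the controls included, were anaemic mutants, so no value here comes from a wild-type kidney. The labels do not state in words that each kidney came from a different animal, and the p-values then measure only the spread between these samples, which may be technical.

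Wnt proteins are lipid-modified ligands that bind Frizzled receptors on nearby cells. In the canonical branch, ligand binding stops the destruction complex, built on Axin, from degrading beta-catenin, which then enters the nucleus and works with TCF/LEF factors at target genes. Sfrp proteins, Frzb and Wif1 bind the ligands outside the cell, and Dkk proteins block the Lrp co-receptors. In the developing kidney Wnt9b from the ureteric bud and Wnt4 in the forming nephron drive the conversion of mesenchyme to epithelium, and Wnt signalling is known to be switched on again in injured adult kidneys.

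The promoters of 5 members with calls below are shown. Wnt4 rose in the clip arm and was still raised after release. Sfrp2 and Wif1 fell in the clip arm and were higher again after release. Wnt11, called lower in the clip arm, and Lef1, called only between release and clip, hold the letters that TCF/LEF factors bind. The windows shown for Wnt4, Sfrp2 and Wif1 hold none. A window of Wnt5b, which was also called lower in the clip arm, holds these letters but is not shown. Each of the 5 shown lost at least 1 of its calls in some alternative settings. No promoter was available for Fzd2, Sfrp4 or Sfrp1. Each run is the 250 bases before an annotated start of the gene, 5′ to 3′ on the strand of the gene, from RefSeq on build GRCm38.p6. Capitals mark the TCF/LEF letters NTCAAAG and the GC box GGGCGG, each searched on both strands. No base of a TCF/LEF match lay in a GC box match in these windows, although in Wnt11 a match of each kind adjoins the other.
Wnt4, chr4:137277385-137277634, plus strand: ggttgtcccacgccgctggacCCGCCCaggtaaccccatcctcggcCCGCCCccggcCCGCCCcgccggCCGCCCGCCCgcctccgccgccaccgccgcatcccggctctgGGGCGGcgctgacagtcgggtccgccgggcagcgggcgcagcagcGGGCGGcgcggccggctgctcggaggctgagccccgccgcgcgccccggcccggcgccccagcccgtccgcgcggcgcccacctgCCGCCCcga
Sfrp2, chr3:83766071-83766320, plus strand: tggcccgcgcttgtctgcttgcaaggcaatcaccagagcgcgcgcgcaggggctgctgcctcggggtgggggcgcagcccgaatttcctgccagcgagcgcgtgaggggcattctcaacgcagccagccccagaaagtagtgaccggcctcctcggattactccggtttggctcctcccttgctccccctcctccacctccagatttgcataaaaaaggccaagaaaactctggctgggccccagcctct
Wif1, chr10:121033754-121034003, plus strand: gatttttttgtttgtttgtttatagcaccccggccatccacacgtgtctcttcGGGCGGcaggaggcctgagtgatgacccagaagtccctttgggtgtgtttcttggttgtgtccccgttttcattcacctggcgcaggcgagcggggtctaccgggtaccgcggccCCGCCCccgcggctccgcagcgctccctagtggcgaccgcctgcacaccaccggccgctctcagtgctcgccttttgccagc
Wnt11, chr7:98834862-98835111, plus strand: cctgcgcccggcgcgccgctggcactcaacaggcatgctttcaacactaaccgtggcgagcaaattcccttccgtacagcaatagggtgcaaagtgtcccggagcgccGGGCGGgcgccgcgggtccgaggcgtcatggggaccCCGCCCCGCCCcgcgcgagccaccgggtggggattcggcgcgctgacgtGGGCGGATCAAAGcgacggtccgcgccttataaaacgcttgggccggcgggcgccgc
Lef1, chr3:131156044-131156293, plus strand: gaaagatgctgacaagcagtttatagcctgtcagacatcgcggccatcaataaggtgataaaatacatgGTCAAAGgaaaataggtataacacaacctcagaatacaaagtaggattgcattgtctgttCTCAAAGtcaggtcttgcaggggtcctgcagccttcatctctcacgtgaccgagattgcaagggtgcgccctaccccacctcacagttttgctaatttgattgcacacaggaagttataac

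RefSeq gave a window of this kind for 35 of the 48 members, of which 20 were tested, and for 44 starts in all, among them 2 of Wnt11 and 4 of Lef1, of which the ones with TCF/LEF letters are shown. TCF/LEF letters stood in 7 of the 44 windows, in Dkk1, Frzb, Fzd1, Lef1, Ror1, Wnt11 and Wnt5b, against 13.8% of the 32851 windows of all genes. GC boxes stood in 34 of the 44 windows, against 32.7% of all windows. The Wnt4 window held 8 GC boxes and no TCF/LEF letters, with 85.2% G or C. The Wnt11 window shown held 4 GC boxes and 1 TCF/LEF match 51 bases before the start. The Lef1 window shown held TCF/LEF matches 181 and 121 bases before its start, the furthest downstream of the 4. The other windows of Wnt11 and Lef1 held no TCF/LEF letters. A match of letters is a description of the sequence and not a binding site, and these windows were not measured in the experiment.

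Each left kidney was extracted whole, and its RNA was read on 1 single-colour Agilent array. Levels are log2 values relative to the 75th percentile of the array, so that 0 is the 75th percentile, and levels of different genes are not compared because probes differ in brightness. The 75th percentile ran from 320.42 to 439.23 intensity units over the 9 arrays, 52.49% to 57.97% of the probes were well above background, and no spot was saturated. All 6 proximal tubule markers, among them Slc34a1, Lrp2 and Cubn, were well above background on all 9 arrays, as were all 5 collecting duct markers. Control, clip and release kidneys shared every slide, 1 of each on all 3. The untreated kidney was the control on slide 3, which was scanned on another day than slides 1 and 2 with the sham kidneys. A difference between untreated and sham kidneys therefore cannot be told apart from slide or scan day. Kidney RNA was taken in bulk, so fewer cells of a type and less RNA per cell cannot be told apart in any value below.

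Of the 48 members, 23 were well above background on all 9 arrays, 14 on none, and 4 on only 1 or 2 arrays. Among the 19 ligands 8 were bright enough to test, as were 8 of the 10 Frizzled receptors and 7 of the 10 secreted antagonists. The ligands Wnt1, Wnt10b, Wnt16, Wnt2b, Wnt3, Wnt6, Wnt8a and Wnt8b, the receptors Fzd9, Fzd10 and Ror1, the antagonists Dkk4 and Sfrp5, and Axin2 were not well above background on any array.

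**Figure D1:**
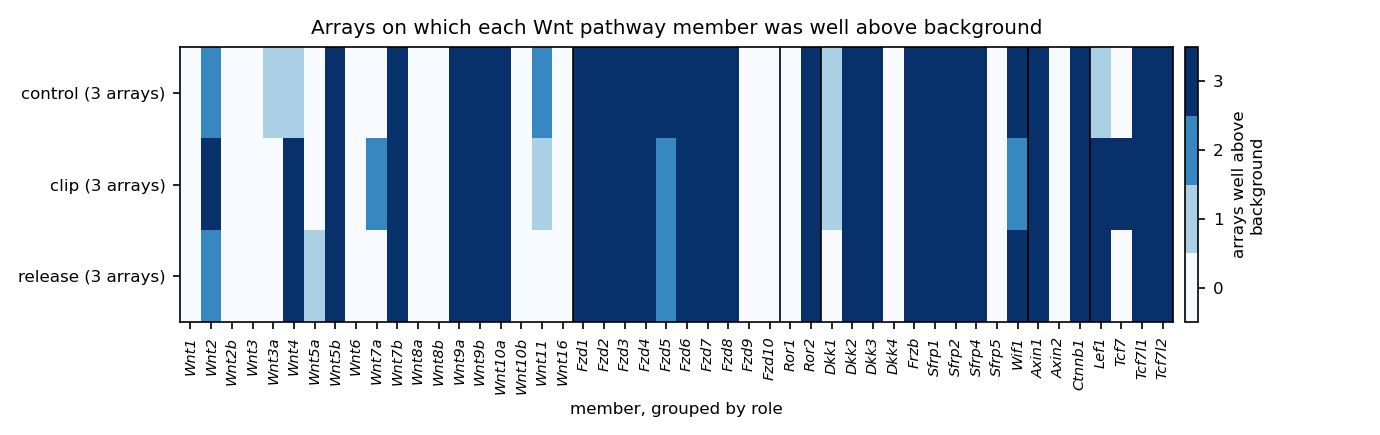
Number of arrays (0 to 3, colour) on which each of the 48 members (columns, in order of role, separated by lines) was well above background in the control, clip and release arms (rows). Wnt4 goes from 1 control array to 3 in both other arms, and Tcf7 is above background on the 3 clip arrays alone.

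With the clip in place for 2 days, 8 of the 30 tested members rose and 6 fell, and with the slide as a block 9 rose and 9 fell. The ligand Wnt4, the receptor Fzd2, the antagonist Sfrp4 and the transcription factor Tcf7, bright enough to test only through its clip arrays, rose by more than 1 on the log2 scale. The antagonists Sfrp1 and Wif1 and the receptor Fzd5 fell by more than 1, with arms that did not overlap. Calls are from limma with Benjamini-Hochberg adjustment over all 17742 genes, at 0.05. The share of members called, 46.7%, stood beside 48.9% of all genes, of which 21.4% rose and 27.5% fell, so the number of calls is not particular to the Wnt genes. The arms did not overlap for 17 of the 30 members, against 58.6% of all genes. The median member changed by 0.06 and the median gene by -0.09.

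Of the 8 tested ligands 3 rose and 2 fell. Wnt4, which signals in nephron formation and is known to be expressed again after kidney injury, had control levels of -3.81, -5.03 and -4.53 (sham 1, sham 2, untreated), clip levels of -1.70, -1.93 and -2.61, and release levels of -1.90, -2.04 and -1.81. Every clip and release array lay above every control array, and the probe was well above background on only 1 of the 3 control arrays. The clip arm was 2.37 ± 0.32 higher (log2 change ± SE of the fit, adjusted p = 0.000409), or 5.18-fold against control levels of which 2 were near background. With those 2 raised to the dimmest signal counted as well above background the fold was 4.16. The clip array exceeded the control array by 2.11, 3.09 and 1.92 within the 3 slides. With normexp background correction the change was 1.12 (adjusted p = 0.00921), still past the threshold. Wnt4 had no second probe to compare.

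Wnt7b, a ligand of the ureteric bud lineage, had control levels of -1.01, -1.82 and -1.61, clip levels of -0.49, -0.82 and -1.01, and release levels of -0.51, -0.58 and -0.69. The lowest clip array equalled the highest control array at this precision, and the arms overlapped. The rise of 0.70 ± 0.21 in the clip arm (adjusted p = 0.0249) was lost without sham 2, untreated, clip 1 or clip 2, each in turn, with changes of 0.53 to 0.73 and adjusted p from 0.0569 to 0.0868. Wnt9a rose by 0.54 ± 0.10 (adjusted p = 0.00216), from control levels of -3.14, -2.98 and -2.90 to clip levels of -2.43, -2.52 and -2.45. This was a small change with tightly grouped arrays, and it stayed past the threshold in all 18 alternative settings.

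Wnt9b, the ureteric bud ligand upstream of Wnt4 in development, had control levels of -0.40, -2.07 and -1.86, clip levels of -0.65, -0.73 and -1.55, and release levels of -0.88, 0.07 and -0.36. Sham 1 lay above all 3 clip arrays and apart from the other two controls, and the clip change of 0.46 ± 0.46 did not pass (adjusted p = 0.436). Without sham 1 the change was 0.99 and passed (adjusted p = 0.0496).

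Wnt11 and Wnt5b, both known mainly for signalling outside the beta-catenin branch, were the ligands that fell. Wnt11 had control levels of -3.03, -3.99 and -3.33 and clip levels of -3.82, -5.17 and -5.08, so that clip 1 lay above sham 2. It was well above background on 2 control arrays, 1 clip array and no release array. Its change of -1.24 ± 0.39 (adjusted p = 0.0277) turned to 0.29 with normexp, and the call was lost without sham 1, untreated, clip 2 or clip 3 (changes of -1.18 to -1.0, adjusted p from 0.0686 to 0.0976). Wnt5b fell by 0.69 ± 0.24 (adjusted p = 0.0401), from control levels of -0.15, -0.42 and -1.06 to clip levels of -1.08, -1.51 and -1.11. The untreated kidney lay next to the clip arrays, and the call was lost when any of 6 arrays was left out (sham 1, sham 2, the 3 clip arrays or release 2), with changes of -0.76 to -0.49 and adjusted p from 0.0583 to 0.132. Wnt2 and Wnt10a did not pass, at -0.12 (adjusted p = 0.725) and 0.90 (adjusted p = 0.117).

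Wnt5a, the prototype ligand of the branch outside beta-catenin, was too dim to test. Its levels were -5.85, -5.71 and -5.21 in the control arm, -4.56, -4.48 and -4.73 in the clip arm and -4.07, -4.43 and -4.13 in the release arm, and only 1 array, in the release arm, was well above background. Wnt7a was well above background on 2 clip arrays and on no other. Dkk1 reached -2.56 in the untreated kidney, where it was well above background, against -6.05 and -5.45 in the sham kidneys. Dkk1 was also well above background on 1 clip array. The other Dkk1 probe was so on no array, with -4.57 in the untreated kidney. Wnt3a was well above background only in the untreated kidney, at -3.65 against -6.52 and -5.93 in the sham kidneys.

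Among the 8 tested Frizzled receptors 3 rose and 1 fell. Fzd2 had control levels of -1.53, -1.61 and -1.39, clip levels of -0.15, -0.43 and -0.69, and release levels of -0.85, -0.72 and -0.66. Every clip and release array lay above every control array, while clip and release overlapped. Fzd2 rose by 1.09 ± 0.14 with the clip (adjusted p = 0.000366), or 2.12-fold, and passed in all 18 alternative settings. Fzd3 rose by 0.75 ± 0.13 (adjusted p = 0.0014), and lost its call only with normexp (0.68, adjusted p = 0.0701). Fzd8 rose by 0.41 ± 0.13 (adjusted p = 0.0315), a call lost without sham 1, untreated, clip 1 or clip 2 (changes of 0.35 to 0.40, adjusted p from 0.0775 to 0.0931).

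Fzd5, a receptor found in epithelia, was the one Frizzled that fell. Its control levels were -2.41, -2.64 and -1.83, its clip levels -4.09, -4.28 and -2.90, and its release levels -3.71, -2.52 and -2.33. Clip 3 lay close to the controls and release 1 close to the clip arrays. The probe was well above background on 2 of the 3 clip arrays and 2 of the 3 release arrays. The change of -1.46 ± 0.46 (adjusted p = 0.0283) was 0.16 with normexp (adjusted p = 0.636). The call was also lost without sham 1, untreated, clip 1 or clip 2 (changes of -1.52 to -1.20, adjusted p from 0.0545 to 0.0986). Another Fzd5 probe moved the same way, by -1.0. The other 4 receptors, Fzd1, Fzd4, Fzd6 and Fzd7, changed by -0.02, -0.28, 0.34 and 0.32 and did not pass, apart from Fzd7 without sham 2 (0.54, adjusted p = 0.0408) and Fzd4 with normexp (-0.55, adjusted p = 0.0392). The co-receptor Ror2, which binds Wnt5a, had control levels of -2.23, -2.06 and -2.65, clip levels of -2.34, -2.66 and -3.04, and release levels of -2.18, -2.15 and -2.78, and the clip change of -0.37 ± 0.24 did not pass (adjusted p = 0.243) without the slide as a block (0.0234 with it).

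**Figure D2:**
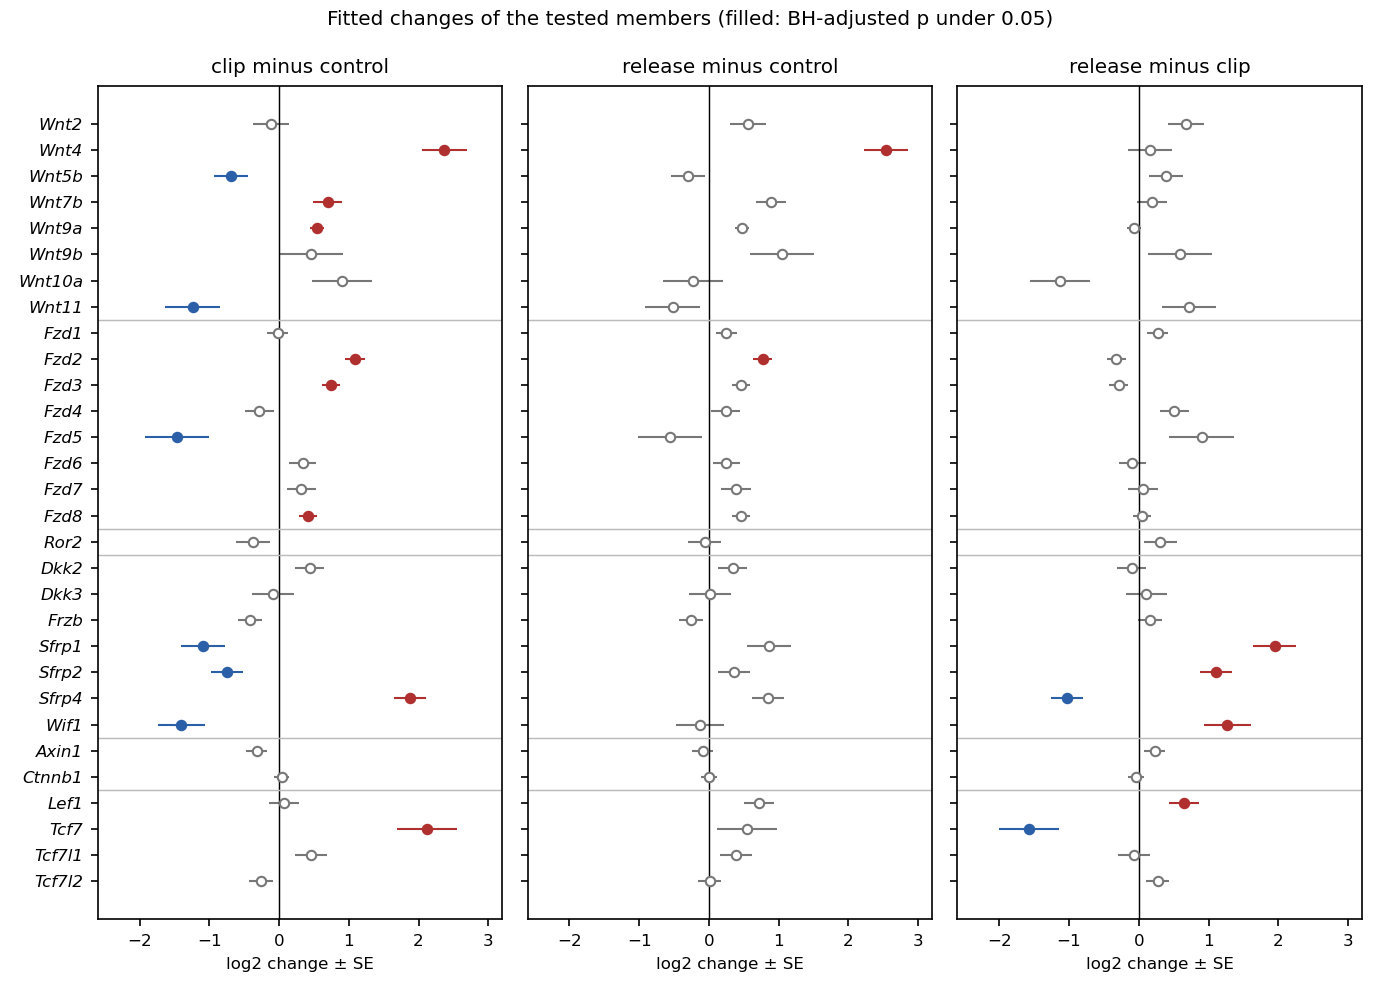
Log2 change ± SE of the fit (horizontal axis) for the 30 tested members (rows, in order of role, separated by lines) between clip and control, release and control, and release and clip, n = 3 arrays per arm. Filled points passed a BH-adjusted p of 0.05, red for higher and blue for lower, and 14, 2 and 6 members did so in the 3 panels.

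The secreted antagonists moved in both directions: of 7 tested, 3 fell and 1 rose. Sfrp1 had control levels of 2.26, 2.16 and 2.14, clip levels of 1.74, 1.07 and 0.47, and release levels of 2.55, 3.34 and 3.23. The controls lay within a narrow band, all 3 clip arrays lay below it and all 3 release arrays above it. The clip change was -1.09 ± 0.31 (adjusted p = 0.0192), 2.14-fold lower, and the other kept Sfrp1 probe changed by -1.49. The call was lost without sham 1 or clip 2 (changes of -1.08 to -1.06, adjusted p from 0.0512 to 0.054).

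Sfrp2 had control levels of -2.0, -2.16 and -2.03, clip levels of -2.38, -2.73 and -3.33, and release levels of -1.45, -1.80 and -1.87. As for Sfrp1, every clip array lay below the controls and every release array above them. The clip change of -0.75 ± 0.23 (adjusted p = 0.0247) was -0.01 with normexp (adjusted p = 0.975). It was also lost without sham 1, untreated or clip 2 (changes of -0.79 to -0.72, adjusted p from 0.0521 to 0.0643). Wif1, which binds Wnt ligands outside the cell, had control levels of -3.13, -2.93 and -1.80, clip levels of -4.27, -4.04 and -3.73, and release levels of -2.92, -2.91 and -2.41. The untreated kidney was the highest of the 9, and the clip arrays lay below all others. Only 2 of the 3 clip arrays were well above background. Wif1 fell by 1.40 ± 0.34 (adjusted p = 0.0086), 2.63-fold, and passed whichever single array was left out, but with normexp the change was 0.09 (adjusted p = 0.842).

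Sfrp4 went the other way. Its control levels were -3.04, -2.58 and -2.53, its clip levels -1.0, -1.11 and -0.42, and its release levels -2.08, -1.99 and -1.55. Every clip array lay above every release array, and every release array above every control array. Sfrp4 rose by 1.88 ± 0.23 with the clip (adjusted p = 0.000237), 3.67-fold, and passed in all 18 alternative settings. Frzb, also called Sfrp3, had control levels of 1.57, 0.98 and 1.30, clip levels of 1.03, 0.87 and 0.70, and release levels of 1.23, 0.80 and 1.05, with overlapping arms, and its change of -0.42 ± 0.17 did not pass (adjusted p = 0.0768), but passed without sham 2 (-0.57, adjusted p = 0.0282) and with the slide as a block (adjusted p = 0.019). Dkk2 had control levels of 0.37, 0.03 and 0.59, clip levels of 0.81, 0.69 and 0.80, and release levels of 0.37, 0.51 and 1.12. Its clip arrays lay above the controls, but the change of 0.44 ± 0.21 did not pass (adjusted p = 0.117) unless release 3 was left out (adjusted p = 0.0418). Dkk3, a divergent Dkk that is not a typical Lrp blocker, had control levels of -0.72, -1.17 and -0.11, clip levels of -0.57, -0.99 and -0.72, and release levels of -1.10, -0.67 and -0.18, and no arm stood apart (-0.09 ± 0.30, adjusted p = 0.818).

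Of the intracellular members only Tcf7 passed. Ctnnb1, which encodes beta-catenin, had levels of 3.29, 3.31 and 3.51 in the control arm, 3.35, 3.33 and 3.56 in the clip arm and 3.41, 3.24 and 3.45 in the release arm. The arms overlapped and the clip change was 0.04 ± 0.11 (adjusted p = 0.787), or 0.30 with quantile normalization (adjusted p = 0.0496). Beta-catenin is regulated mainly through its protein, which these arrays do not measure. Axin2, a target gene that feeds back on the pathway, was not well above background on any array, with levels of -6.51, -6.53 and -6.50 in the control arm, -6.71, -6.90 and -6.82 in the clip arm and -6.07, -6.01 and -6.54 in the release arm, so that its single probe gave no usable readout. Axin1 changed by -0.32 ± 0.15 (adjusted p = 0.108), and by -0.43 without the untreated kidney (adjusted p = 0.0471). Its clip arrays lay below the controls, and with the slide as a block the change passed (adjusted p = 0.0116).

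Tcf7, named for its role in T cells, had control levels of -6.29, -5.92 and -4.73, clip levels of -3.60, -3.57 and -3.42, and release levels of -5.89, -4.82 and -4.61. It was well above background on all 3 clip arrays and on none of the others. Tcf7 thus entered the tests only through the arm in which it was high, so its call is given as a description and supports nothing. Where no array of the dimmer arm is well above background, the fold is given as a lower bound. The dim level on an array is then set to its own signal or, where higher, to the dimmest signal that counted as well above background there. Tcf7 was at least 1.69-fold higher in the clip arm, and its fitted change was 2.12 ± 0.43 (adjusted p = 0.0038). With normexp the change was 0.87 (adjusted p = 0.0345). Lef1 had control levels of -3.44, -4.19 and -4.12, clip levels of -3.84, -3.60 and -4.09, and release levels of -3.18, -3.10 and -3.30. Its clip arrays fell among the controls (0.07 ± 0.21, adjusted p = 0.8). Tcf7l1 and Tcf7l2 changed by 0.46 (adjusted p = 0.137, or 0.0482 without release 1 and 0.0497 with the slide as a block) and -0.26 (adjusted p = 0.233).

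**Figure D3:**
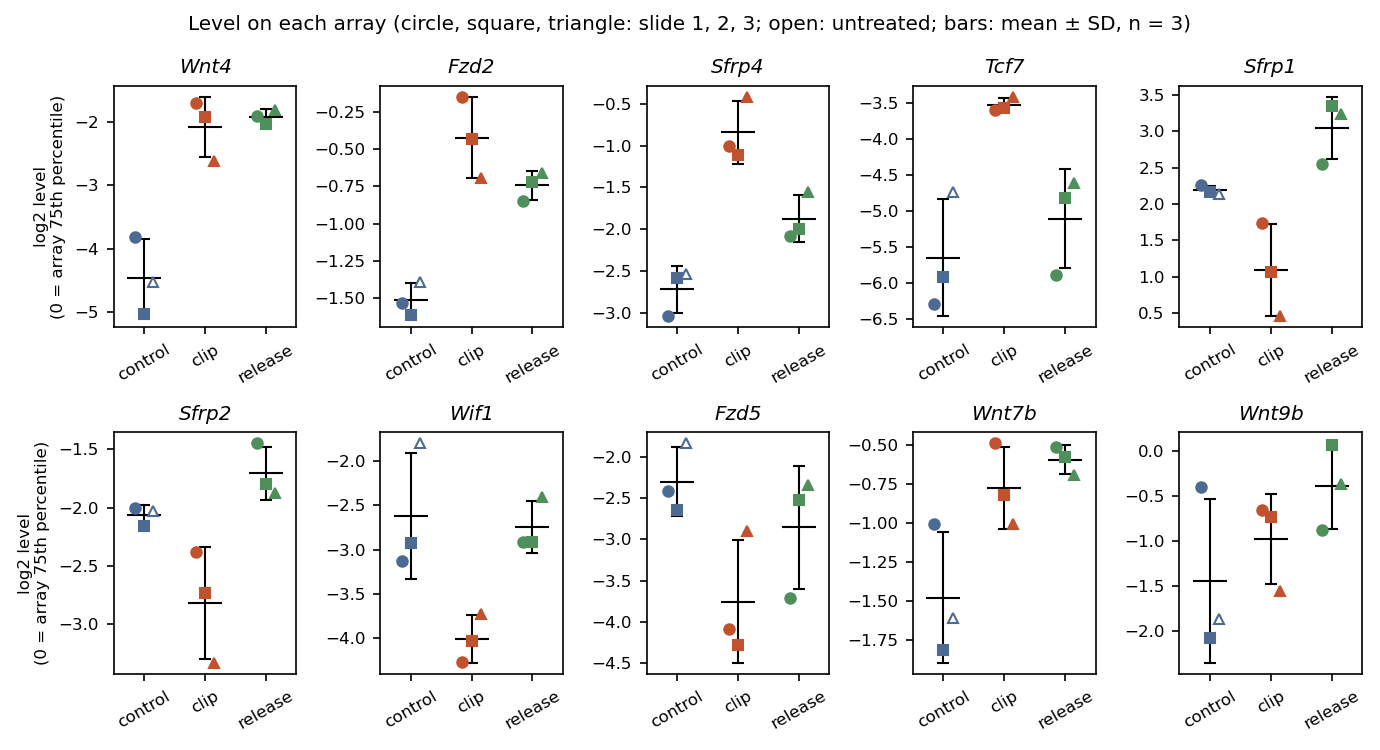
Log2 level relative to the 75th percentile of the array (vertical axis, a separate scale for each gene) on each of the 9 arrays for 10 members, by arm, with the mean and SD of n = 3 arrays. Marker shape gives the slide and the open triangle is the untreated kidney: Sfrp1 and Sfrp2 lie below the controls in the clip arm and above them in the release arm, while Wnt4 stays high in both.

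Markers of cell types moved with the clip, and their part in the member changes was not tested. Of the fibroblast and pericyte markers 10 of 11 rose, and their summed signal, in units of the 75th percentile, went from 57.3 to 73.7 on the control arrays to 248.0 to 324.0 on the clip arrays and 94.5 to 116.0 on the release arrays. Of the macrophage markers 7 of 8 rose (6.91 to 8.63, 17.9 to 20.6 and 10.7 to 12.7 in the 3 arms), with Itgam, Lyz2 and Ccr2 not well above background on any control array. Of the 6 tested T cell markers 4 rose (0.595 to 0.754, 1.31 to 1.71 and 0.87 to 1.51), while Cd2 and Cd4 were not well above background on any array. Cd3g, among those that rose, was well above background on no control array. Itgam, Lyz2, Ccr2 and Cd3g entered the tests only through arms in which they were high, so their calls are descriptions and support nothing. The Tcf7 levels stand beside a T cell list of which Cd3d rose by 1.17. The defining marker Cd3e had a mean level of -3.81 in the control arm and -3.81 in the clip arm.

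Among the tubule lists the movement was downward. Of the proximal tubule markers 5 of 6 fell, with summed signals of 356.0 to 414.0 on the control arrays, 96.9 to 135.0 on the clip arrays and 303.0 to 379.0 on the release arrays. All 5 thick limb and distal tubule markers fell (348.0 to 395.0, 140.0 to 174.0 and 376.0 to 412.0), as did 3 of 5 collecting duct markers (72.4 to 98.2, 34.0 to 39.6 and 88.9 to 103.0). The distal marker Pvalb was well above background on no clip array. It entered the tests only through arms in which it was high, so its call is a description and supports nothing. Of the podocyte markers 3 of 5 fell (4.13 to 5.84, 3.72 to 4.10 and 4.40 to 4.56). Of the endothelial markers 2 of 6 fell and 1 rose (47.3 to 49.4, 37.3 to 43.5 and 52.3 to 58.6). Of the urothelial markers 1 of 6 rose, with summed signals of the list of 0.956 to 1.98, 2.64 to 5.11 and 2.06 to 2.51. This was Krt5, whose mean level went from -1.06 in the control arm to 1.39 in the clip arm. No uroplakin was called. All 5 cycling cell markers rose (1.23 to 1.91, 18.2 to 18.9 and 1.57 to 1.90). Top2a and Ccnb1 among them were well above background on no control array. They entered the tests only through arms in which they were high, so their calls are descriptions and support nothing. Every member that rose or fell with the clip thus stood beside both lower tubule markers and higher fibroblast, macrophage and cycling cell markers. No pairing of a member with a cell type was tested.

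At 12 days after clip removal 2 members were still higher than in the control arm and none was lower. These were Wnt4, at 2.54 ± 0.32 (adjusted p = 0.0212), or 5.80-fold (4.65-fold with the 2 dim control levels raised as before), and Fzd2, at 0.77 ± 0.14 (adjusted p = 0.0448), or 1.70-fold. The 2 called members make up 6.67% of the 30, against 1.83% of all genes called, 1.46% higher and 0.372% lower, and 9 members had an unadjusted p under 0.05 by limma. The arms did not overlap for 10 of the 30 members, against 27.2% of all genes. The median member stood 0.35 above control and the median gene at -0.01. Both comparisons use the same 3 control arrays, so a control array that is low for a gene raises both of its changes.

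Within the 3 slides the release kidney exceeded the control by 1.91, 2.98 and 2.72 for Wnt4 and by 0.69, 0.89 and 0.73 for Fzd2. The Wnt4 call was lost without sham 2, release 2 or release 3 (changes of 2.25 to 2.60, adjusted p from 0.0526 to 0.0989), and with normexp the change was 0.94 (adjusted p = 0.322). The Fzd2 call was lost without each array in turn except clip 3 (changes of 0.72 to 0.83, adjusted p from 0.0521 to 0.15), and in 14 of the 18 alternative settings in all. Among the 28 members not called, Wnt9a stood at 0.47 (adjusted p = 0.0561), Wnt7b at 0.89 (adjusted p = 0.0705), Sfrp4 at 0.85 (adjusted p = 0.0915), Fzd3 at 0.46 (adjusted p = 0.0936), Lef1 at 0.72 (adjusted p = 0.104) and Sfrp1 at 0.86 (adjusted p = 0.173). With the slide as a block Wnt9a, Wnt7b, Sfrp4 and Fzd3 passed (adjusted p of 0.0387, 0.037, 0.0357 and 0.0389). Wnt9a also passed with probes above background on all arrays (adjusted p = 0.0456). In each of the 6 genes named all 3 release arrays lay above all 3 control arrays. The same held for Fzd8, at 0.46 (adjusted p = 0.106), and Sfrp2, at 0.36 (adjusted p = 0.396), which were not called either. Wnt9b stood at 1.05 ± 0.46 (adjusted p = 0.235), with release 1 below sham 1. Of the fibroblast markers 4 of 11, of the macrophage markers 2 of 8 and of the T cell markers 1 of 6 were also still higher in the release arm. Ccr2 and Cd3g, among those called, were well above background on no control array, so their calls are descriptions and support nothing.

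Set against the clip arm, the release arm had 4 members higher and 2 lower, and 4 of these 6 were secreted antagonists. Those 4 were 57.1% of the 7 tested antagonists, where 41.0% of all genes were called. Sfrp1 was higher by 1.95 ± 0.31 (adjusted p = 0.00145), 3.86-fold, Sfrp2 by 1.11 ± 0.23 (adjusted p = 0.00511), 2.15-fold, and Wif1 by 1.27 ± 0.34 (adjusted p = 0.0163), 2.41-fold. Sfrp4 was lower by 2.04-fold (-1.03 ± 0.23, adjusted p = 0.00739). Tcf7 was at least 1.40-fold lower (fitted change -1.58 ± 0.43, adjusted p = 0.0192), and Lef1 was higher by 0.65 ± 0.21 (adjusted p = 0.0357), 1.57-fold. The members called, 20.0% of those tested, stood beside 41.0% of all genes, of which 23.5% were higher and 17.4% lower after release. The arms did not overlap for 10 of the 30, against 54.8% of all genes.

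No ligand and no Frizzled receptor passed between clip and release as fitted, where 2 and 1 of them had an unadjusted p under 0.05 by limma. With the slide as a block Fzd3 (-0.29, adjusted p = 0.0262), Fzd5 (0.90, adjusted p = 0.0489) and Wnt10a (-1.13, adjusted p = 0.0492) passed, as did Ror2 (0.31, adjusted p = 0.046) and Axin1 (0.23, adjusted p = 0.0449). Normexp added Fzd4 (0.65, adjusted p = 0.0237) and Wnt10a (-0.89, adjusted p = 0.0439), quantile normalization Fzd3 (-0.36, adjusted p = 0.0461) and the mean over probes Fzd5 (0.86, adjusted p = 0.0151). Wnt4 differed by 0.16 ± 0.32 (adjusted p = 0.719) and Wnt7b by 0.19 ± 0.21 (adjusted p = 0.524), and these values do not show that the arms were alike. Leaving out single arrays brought in Fzd1 (0.27 without the untreated kidney, adjusted p = 0.0494), Fzd2 and Fzd3 (-0.45 and -0.40 without clip 3, adjusted p of 0.0294 and 0.0364), Fzd4 and Wnt2 (0.70 and 0.90 without release 1, adjusted p of 0.0339 and 0.0306), Fzd5 (1.33 without clip 3 or release 1, adjusted p of 0.0439 and 0.0431), Wnt10a (-1.13 without sham 2, adjusted p = 0.00686) and Wnt11 (1.15 without clip 1, adjusted p = 0.0201). The differences of Sfrp1 and Sfrp4 passed in all 17 alternative settings. With normexp Sfrp2 differed by 0.18 (adjusted p = 0.64), Wif1 by -0.19 (adjusted p = 0.661) and Lef1 by -0.34 (adjusted p = 0.446), so that the sign turned for the last pair. Single arrays also ended calls: Wif1 without clip 1 or release 3 (1.10 and 1.14, adjusted p of 0.0547 to 0.0568), Tcf7 without clip 2, clip 3 or release 1 (-1.60 to -1.19, adjusted p from 0.0517 to 0.0563), and Lef1 without clip 1, clip 3 or any release array (0.53 to 0.70, adjusted p from 0.0588 to 0.11).

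The remaining genes of the pathway were followed in 5 lists. Among secretion and membrane regulators 14 of 20 were tested, and 3 rose and 6 fell with the clip, where 48.9% of all genes were called, with a median change of -0.29 beside -0.09 for all genes tested. The largest rises were Tpbg, a membrane glycoprotein that modulates Wnt signalling (at least 2.77-fold, fitted change 1.83 ± 0.12, adjusted p = 1e-05), and the glypican Gpc3 (1.47 ± 0.31, adjusted p = 0.00462). Tpbg and Kremen1, both among the 3 that rose, were well above background on no control array. They entered the tests only through arms in which they were high, so their calls are descriptions and support nothing. The largest falls were Notum, the enzyme that removes the lipid from Wnt proteins (-2.63 ± 0.27, adjusted p = 9.44e-05), and the antagonist Sostdc1 (-1.29 ± 0.14, adjusted p = 0.000107). Notum was well above background on only 1 of the 3 clip arrays, and with normexp its change was -0.36 (adjusted p = 0.423). Tpbg alone of this list was still higher after release (0.89 ± 0.12, adjusted p = 0.022), a call lost without sham 2, release 2 or release 3 (0.81 to 0.93, adjusted p from 0.0614 to 0.0997).

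Of the 22 tested Dishevelled and destruction complex genes 3 rose and 4 fell, beside the same 48.9% of all genes called, with a median change of -0.05. Nkd1 and Nkd2, which bind Dishevelled and dampen the signal, rose by 1.43 ± 0.19 (adjusted p = 0.000435) and 1.42 ± 0.17 (adjusted p = 0.000204). The casein kinase Csnk1g3 fell by 0.84 ± 0.08 (adjusted p = 7.02e-05) and the ubiquitin ligase subunit Fbxw11 by 0.64 ± 0.13 (adjusted p = 0.00347). Of the 13 tested nuclear partners 1 rose, Pygo2 (0.44 ± 0.12, adjusted p = 0.0165, lost without clip 1 or clip 2 at 0.39 and 0.42, adjusted p of 0.0528 and 0.06), and 3 fell, led by the beta-catenin inhibitor Ctnnbip1 (-0.86 ± 0.17, adjusted p = 0.00359) and the corepressor Tle2 (-0.67 ± 0.16, adjusted p = 0.00774). The median nuclear partner changed by -0.03. None of either list was called in release against control by limma, where 3 and 2 genes had an unadjusted p under 0.05. Of the 16 tested planar polarity genes and other receptors 5 rose, led by Vangl2 (0.94 ± 0.13, adjusted p = 0.000546) and Ptk7 (0.69 ± 0.13, adjusted p = 0.003), and Celsr2 fell (-0.31 ± 0.09, adjusted p = 0.0236), with a median list change of 0.17. None was called after release by limma, and 3 had an unadjusted p under 0.05. The Celsr2 call was lost without sham 1, untreated, clip 2 or clip 3 (-0.31 to -0.26, adjusted p from 0.0621 to 0.0656).

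Of 17 tested genes known as Wnt targets, many of which other pathways also control, 9 rose and 2 fell, where 21.4% of all genes rose and 27.5% fell, with a median change of 1.43 with the clip and 0.48 after release. Mmp7, a matrix-degrading enzyme, was at least 19.6-fold higher (fitted change 5.12 ± 0.41, adjusted p = 2.74e-05), and the adhesion receptor Cd44 rose by 3.94 ± 0.30 (adjusted p = 2.16e-05), 15.4-fold. Mmp7 and Fosl1, both among the 9, were well above background on no control array. They entered the tests only through arms in which they were high, so their calls are descriptions and support nothing. The 2 that fell were Sp5, a transcription factor (-1.22 ± 0.16, adjusted p = 0.000359), and Jun (-0.49 ± 0.18, adjusted p = 0.0464). The Jun call was lost without 7 of the 9 arrays in turn, all but sham 1 and clip 2 (-0.53 to -0.30, adjusted p from 0.0619 to 0.125). Birc5 in this list is also a cycling cell marker, and Nkd1 stands in the destruction complex list too. Fn1 and Snai1 were also higher after release, by 1.0 ± 0.13 (adjusted p = 0.0212) and 1.02 ± 0.20 (adjusted p = 0.0479). The Fn1 call was lost on leaving out sham 1, sham 2, release 2 or release 3 (0.90 to 1.10, adjusted p from 0.0517 to 0.0758) and the Snai1 call without any 1 of the 9 arrays (0.84 to 1.19, adjusted p from 0.0603 to 0.164).

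**Figure D4:**
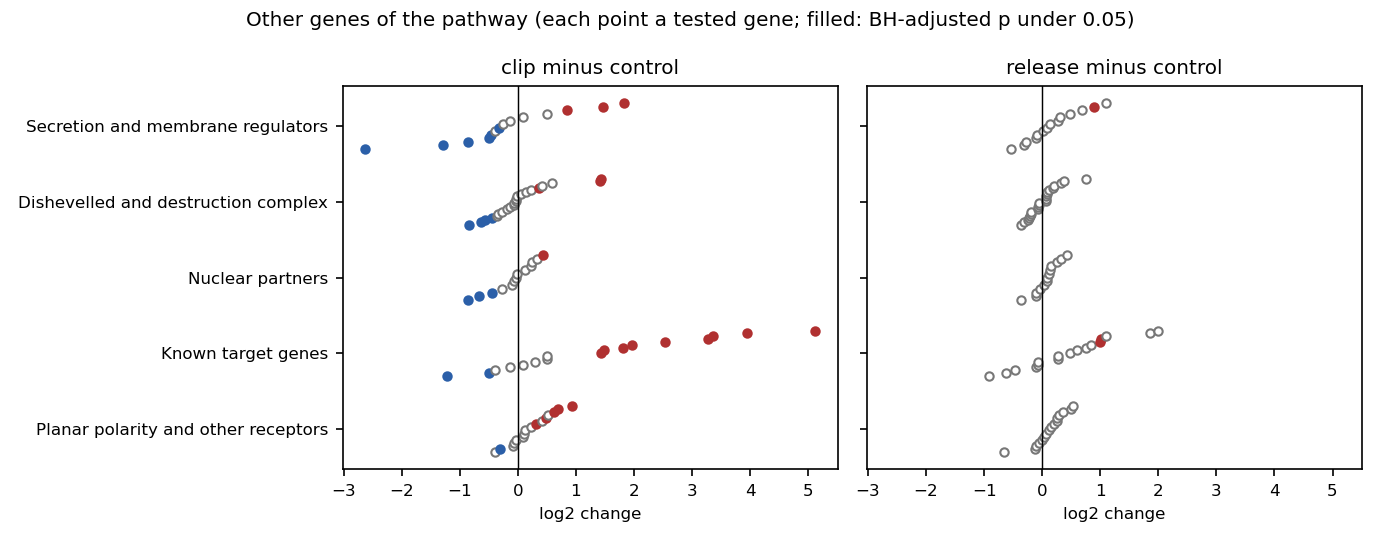
Log2 change (horizontal axis) of each tested gene of 5 lists of other Wnt pathway genes (rows), clip minus control and release minus control, n = 3 arrays per arm. Filled points passed a BH-adjusted p of 0.05, red for higher and blue for lower: the known target genes reach 5.12 in the clip panel, and 3 genes are filled in the release panel.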

How the data were processed

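Per the file headers, the authors' arrays (design 014868, scanner G2505C) were read with Feature Extraction 10.7.3.1, protocol GE1_107_Sep09, whose deposited intensity per spot is background-subtracted and not scaled between arrays. Other deposited columns flag spots above background, saturated and outlier. Labelling used 500 ng of RNA, per the labels.

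Levels are the log2 ratio of each intensity to the 75th percentile of its array. Probes were matched to symbols by RefSeq accession (26690 of 41174 probes). Probes well above background on at least 3 of 9 arrays and never lost to outlier flags were kept (23544), the brightest per gene (17742 genes). The 3 arms were fitted over all 9 arrays with limma 3.58.1 in R 4.3.3, with p-values BH-adjusted over all genes, and the procedure was tested on simulated data. Named members were those called at 1 or more (log2) without overlap in clip against control, those called in release against control, and a fixed set. Other members are given where called, and each pathway list by its 2 largest rises and falls. Members and lists were chosen with earlier results of these data known.

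Deviations from arm means correlated at 0.161 to 0.282 between arrays on 1 slide and at -0.239 to 0.00291 between arrays of different arms on different slides. Alternatives were normexp background correction (offset 50), quantile normalization, the mean of a gene's probes, other filters on dim probes, slide and replicate blocks, sham alone as control, the compared groups alone and leaving out each array. The planned normexp alternative used median instead of mean spot signals. A deposited table of log2 values covers the 9 arrays, with column medians of 0.0061, 0.017 and 0.0056 (sham 1, sham 2, untreated), -0.1293, -0.1477 and -0.12 (clip) and 0.0164, -0.0252 and -0.0239 (release). Its rows correlated with their own probe at a median of 0.0188, so its scale, centring and direction stay unknown and it was not used.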

Additional observations from a re-analysis of the deposited data

Results flagged for a closer look

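Sfrp1 and Sfrp2 lay on opposite sides of every control array in the 2 injury arms, below in clip and above in release. The difference between release and clip was 1.95 ± 0.31 for Sfrp1 (adjusted p = 0.00145, limma) and 1.11 ± 0.23 for Sfrp2 (adjusted p = 0.00511), on 3 of 3 slides each. The release arm against control did not pass for either (0.86, adjusted p = 0.173, and 0.36, adjusted p = 0.396). With normexp the Sfrp2 difference between release and clip was 0.18 (adjusted p = 0.64).

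Wnt5a and Wnt7a, left out of the tests as too dim, gave signal outside the control arm. Wnt5a was well above background on 1 release array and no control array, and Wnt7a on 2 clip arrays and no control array. With no filter on dim probes both were called higher in clip against control, although Wnt5a was well above background on no clip array. In release against clip that setting also called members that were well above background on no array.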

How the results depend on the processing

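Normexp background correction gave the changes of sign. In clip against control Fzd5 went to 0.16, Wif1 to 0.09 and Wnt11 to 0.29, and in release against clip Lef1 went to -0.34 and Wif1 to -0.19. It moved the median of all genes from -0.09 to 0.10 in clip against control. In 44 other cases among the 21 members followed a sign changed with no call on either side. The cause was not tested.

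The count of members lower in clip against control, 6, was 2 with normexp, 2 with no filter on dim probes and 3 with probes above background on all arrays, where fewer members (23) could be tested, and 1 to 6 when leaving out single arrays. The count higher in release against control, 2, was 0 with normexp (which called 0.00564% of all genes), with no filter and with the compared groups fitted alone, 1 with quantile normalization and with sham alone as control, and 0 to 2 when leaving out single arrays. In release against clip the 4 higher members became 2 with normexp, 2 with probes above background on all arrays, 11 with no filter and 2 to 6 when leaving out single arrays. The 2 lower became 1 with probes above background on all arrays and 1 to 3 when leaving out single arrays. The 11 higher with no filter included Axin2, Fzd10, Ror1, Wnt2b, Wnt3, Wnt8a and Wnt8b, which stayed near background in all 3 arms. Their mean levels were -6.91 to -6.63 in the clip arm and -6.31 to -5.36 in the release arm. These added calls are descriptions and support no rise of Wnt members after release. The cause of the shifts in these counts was not tested beyond the smaller number of members.

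With the slide as a block 9 members were higher and 9 lower in clip against control (Axin1, Frzb, Ror2 and Tcf7l1 added). In the same fit 6 members were higher in release against control (Fzd3, Sfrp4, Wnt7b and Wnt9a added), and 7 were higher and 4 lower in release against clip. The replicate numbers follow the slides except for the untreated kidney, number 1 on slide 3, whose deviations correlated at -0.209 with clip 1, so they share only a number. With the replicate block 1 member was higher in release against control, and 12 and 5 were called in clip against control and in release against clip. Fzd2, Sfrp4 and Wnt9a in clip against control, and Sfrp1 and Sfrp4 in release against clip, kept direction and call in every alternative run. Wnt4 and Tcf7 in clip against control did so in the 17 that could test them. Neither was tested with probes above background on all arrays. Tcf7 entered the tests only through its clip arrays, and Wnt4 had only 1 control array well above background. The count of settings is therefore a description for both and supports nothing. Changes are limited by signals near background in the control arm for Wnt4 and Tcf7, and in the clip and release arms for Wnt11. Wif1 and Fzd5 were each well above background on only 2 of the 3 clip arrays.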
